A study of Mus musculus with 6 samples.

Results

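The genes described here encode the ligands, receptors, Smad proteins and secreted inhibitors of the TGF-beta, bone morphogenetic protein (BMP) and activin pathways. They were taken from the array by the gene name that its scanner files give each spot: names that begin with Bmp or Gdf and a number, Bmpr, Inha or Inhb, Acvr, or Smad and a number, the names Tgfb1, Tgfb2, Tgfb3, Tgfbr1, Tgfbr2 and Tgfbr3, and the 4 antagonist genes Nog, Grem1, Chrd and Fst. This rule uses names only and no measured value. It found 55 genes on 84 probes and 120 spots, of 41174 probes and 43379 spots that are not controls. The pattern also takes in 2 genes whose products are neither ligand, receptor nor Smad: Bmp1, a protease, and Bmp2k, a kinase.

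The study set epithelial cells of the mouse thymus against those of the thyroid, both from C57BL/6 animals whose age is not given in the sources used here. Thymic medullary epithelial cells were sorted alive (Fluorogold-) as Epcam+ UEA1+ CD45-, where UEA1 is a lectin that marks the medullary type, Epcam is an epithelial surface protein and CD45 marks blood cells. Thyroid epithelial cells were sorted as Epcam+ CD45- Fluorogold-, without the lectin. There were 3 samples of each, described as independent: cells came from 6 thymi in thymic replicates 1 and 2, from 2 thymi in replicate 3, and from 20 thyroids in every thyroid replicate, so that the spread between samples is one between pools. RNA was labelled with Cy3 and hybridised to 6 one-colour Agilent arrays, 4 on a first slide (thymic replicates 1 to 3 and thyroid replicate 1) and 2 on a second (thyroid replicates 2 and 3).

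As background, ligands of this family are secreted dimers that bring together type 1 and type 2 receptor kinases at the cell surface. The activated type 1 receptor phosphorylates a receptor Smad: Smad2 or Smad3 for TGF-beta, activins and some GDFs, and Smad1, Smad5 or Smad9 for BMPs. These join Smad4, enter the nucleus and switch on target genes, among them Smad6 and Smad7, whose products block the pathway in turn. TGF-beta is secreted in a latent form that must be released, and proteins such as noggin, gremlin, chordin and follistatin bind BMPs or activins outside the cell. In the thymus the family is known for its part in the development and repair of the epithelium, and in the thyroid for restraining growth of follicular cells. Endothelial cells use a version of their own, with the type 1 receptor Acvrl1 (ALK1) and the coreceptor endoglin.

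No spot was saturated, and the share of probes well above background ran from 78.4% to 81.0% in the thymic samples and from 65.3% to 72.7% in the thyroid samples. The listed markers of both labelled cell types that were on the array were all above background in their own group. Of 7 medullary thymic epithelial markers on the array, all 7 were higher in the thymic samples, where their summed signal, in multiples of each array's 75th percentile, was 236 to 257, against 1.66 to 2.35 in the thyroid samples. Of 8 thyroid follicular markers, 7 were higher in the thyroid samples, with sums over all 8 of 589 to 772 against 0.612 to 0.664. Duox2 passed in neither direction. The 4 general epithelial markers were present in both groups and higher in the thymic samples (451 to 528 against 141 to 175). Other cell types also differed between the groups. All 12 endothelial markers were higher in the thyroid samples, with sums of 751 to 1107 against 5.44 to 6.04, and all 8 myeloid markers were higher in the thymic samples, with sums of 102 to 111 against 1.57 to 2.98. Most of that sum is Lyz2, and the other 7 sum to 4.34 to 4.76 against 0.979 to 1.66. The 8 T cell markers (3.30 to 6.60 against 0.681 to 0.797) and the 5 B cell markers (4.28 to 5.18 against 1.37 to 2.58) were likewise all higher in the thymic samples. Summed signals of C cell markers were 505 to 911 in the thyroid samples and 88.1 to 118 in the thymic samples, and without Calca they overlapped (86.4 to 366 and 59.4 to 87.4). The sums without a list's brightest gene were added after the data were seen. Fibroblast and mural markers overlapped, at 41.8 to 57.1 and 27.5 to 53.0, with 1 of 10 higher in each direction. These are bulk samples, in which fewer cells of a type and less RNA per cell cannot be told apart, and the part that these other cells have in the results on single genes was not tested.

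**Figure D1:**
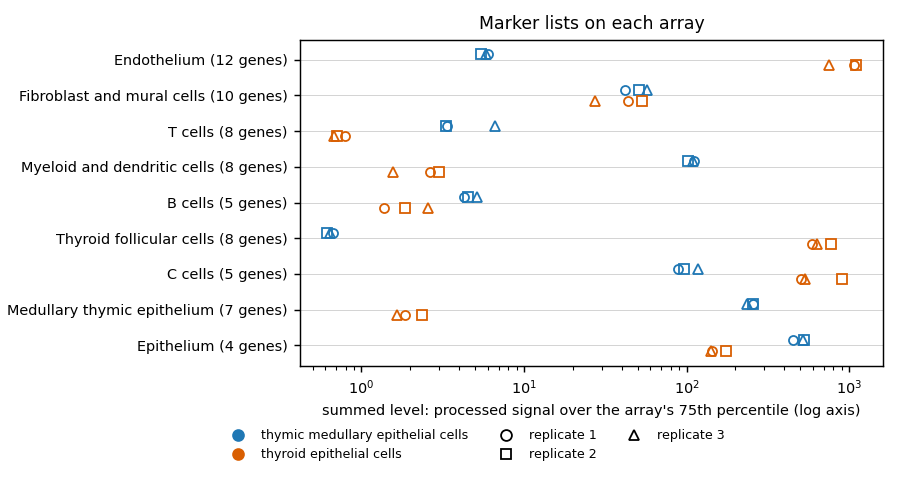
Summed signal of each cell type's marker list on each of the 6 arrays, in multiples of the array's 75th percentile on a log axis, with 1 symbol per array, the groups by colour and the replicates by shape. The endothelial sum lies at 751 to 1107 in the thyroid samples and at 5.44 to 6.04 in the thymic samples, and the myeloid sum at 1.57 to 2.98 and 102 to 111.

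Levels below are log2 of the processed signal minus the 75th percentile of the same array, so that a level of 0 equals that percentile. Differences are thymic minus thyroid levels, so that a positive difference is higher in the thymic samples, with the standard error (SE) of the fit. They were tested with limma on the whole array, with p-values adjusted over 21381 genes and a threshold of 0.05. Levels of different genes come from different probes and are not compared.

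Similar numbers of the members were higher in each tissue. Of the 55 genes, 50 were bright enough to test, which means that every array of 1 group or the other held them well above background, and 42 were above background on all 6. In the thymic samples 21 of the 50 were higher (42.0%), 16 of them by at least 2-fold. In the thyroid samples 22 were higher (44.0%), again 16 by at least 2-fold, and 7 passed in neither direction. Over all genes tested, 39.3% were higher in the thymic and 30.5% in the thyroid samples, so that the share of thymic calls lay near that of the whole array and the share of thyroid calls above it. The groups did not overlap in 43 of the 50 (86.0%), against 76.5% of all genes. The median difference was 0.01 over the members and 0.10 over all genes tested.

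The split depends on the scaling. Centring each array on its median in place of its 75th percentile moves every difference by -0.54, toward the thyroid, and then 16 members were higher in the thymic and 26 in the thyroid samples. Over the whole array the same change took the calls from 8402 thymic and 6515 thyroid to 6098 and 11041. On that scale 52.0% of members and 51.6% of all genes were higher in the thyroid samples, so that the members' larger share of thyroid calls was not seen. Small differences in either direction are therefore relative to the scale used, and those of under about 0.54 that turn are named below. In every alternative setting in which they were tested, 13 of the 21 thymic calls and 18 of the 22 thyroid calls held in the same direction. Of these, 3 thymic and 2 thyroid genes (Gdf3, Gdf8 and Acvr1c, and Acvrl1 and Smad9) could not enter the setting that requires signal on all 6 arrays.

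**Figure D2:**
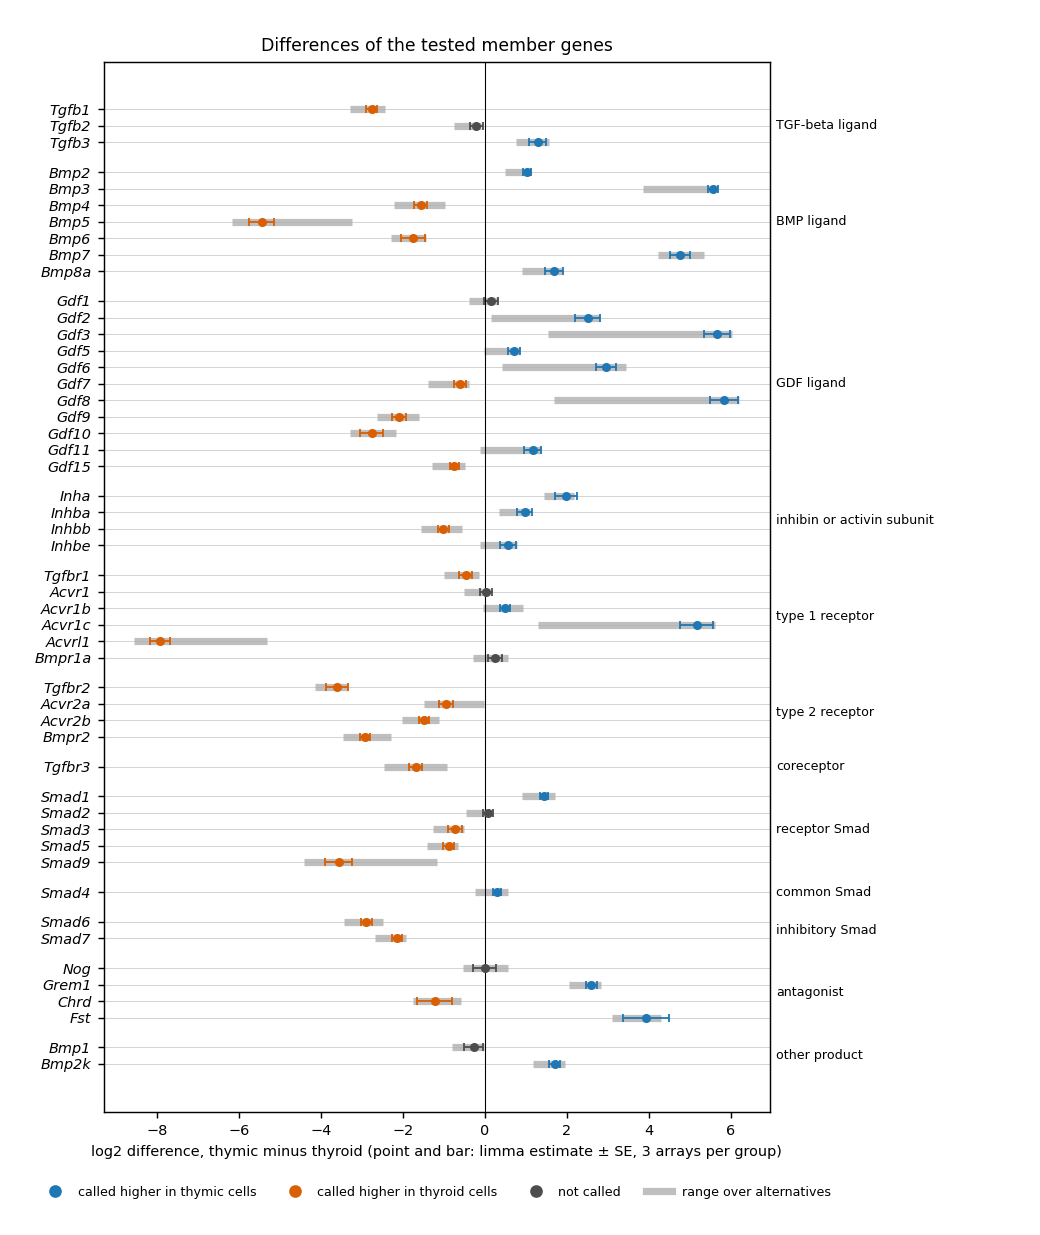
Log2 difference (thymic minus thyroid) with its standard error for each of the 50 tested members, grouped by role and coloured by call at an adjusted p under 0.05, with grey bands for the range over the alternative settings. The differences run from -7.94 for Acvrl1 to 5.83 for Gdf8, with 21 calls to the right of 0 and 22 to the left.

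By role the calls can be set beside the 39.3% thymic and 30.5% thyroid calls of all genes. Of 25 tested ligand genes, 14 were higher in the thymic (56.0%) and 9 in the thyroid samples (36.0%). Only 20 of the 25 were above background on all 6 arrays. The others, Gdf2, Gdf3, Gdf6, Gdf8 and Gdf11, entered the test through the thymic samples alone and are all among the thymic calls. The larger thymic share of ligands therefore depends on the filter. Requiring signal on all 6 arrays took the shares of all genes to 29.5% thymic and 37.5% thyroid. The 10 signalling receptors of type 1 and type 2 gave 2 thymic (20.0%) and 6 thyroid calls (60.0%), and all 4 type 2 receptors were among the latter. Of 8 Smad genes, 2 were higher in the thymic (25%) and 5 in the thyroid samples (62.5%), both inhibitory Smads included. These are counts of few genes, no test compared the roles with each other, and with median centring 51.6% of all genes were higher in the thyroid samples.

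The 3 TGF-beta ligands went separate ways: Tgfb1 was higher in the thyroid samples, Tgfb3 in the thymic samples, and Tgfb2 passed in neither. Tgfb1, the main form in blood cells and endothelium, had levels of -1.85, -1.82 and -1.87 in thymic replicates 1 to 3 and of 1.08, 0.99 and 0.68 in thyroid replicates 1 to 3. The groups lay far apart, and the level was 6.78-fold higher in the thyroid samples (difference -2.76 ± 0.13 SE, adjusted p = 4.33e-06). Endothelial markers were higher on the same 3 arrays, at sums of 751 to 1107, and myeloid and T cell markers were higher in the thymic samples. The part of these cells in the result was not tested. Tgfb3, known from epithelial fusion and wound repair, stood at 2.30, 2.40 and 1.89 in the thymic samples and at 0.63, 0.93 and 1.18 in the thyroid samples, 2.44-fold higher in the thymic samples (1.29 ± 0.20, adjusted p = 0.00105). Its groups did not overlap. Tgfb2 had levels of 0.58, 0.30 and 0.58 in the thymic and of 0.91, 0.71 and 0.48 in the thyroid samples, which overlapped (-0.21 ± 0.15, adjusted p = 0.261). With each array centred on its median it was called higher in the thyroid samples (-0.75, adjusted p = 0.00408, range over all settings 0.00408 to 0.579).

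BMP ligands gave some of the largest differences in both directions, and of 7 tested 4 were higher in the thymic and 3 in the thyroid samples. Bmp7, a ligand of many developing epithelia, had levels of 2.69, 2.92 and 2.67 in the thymic samples and of -2.58, -1.73 and -1.69 in the thyroid samples. Its 27.1-fold higher level in the thymic samples (4.76 ± 0.25, adjusted p = 6.31e-06) was several times the spread within either group. The probe lies on chromosome 2 from 172512641 to 172512700 in mm8, the mouse build the scanner files use. Bmp3, an atypical BMP that opposes the others, stood at 0.77, 0.71 and 0.98 in the thymic and at -4.72, -4.66 and -4.83 in the thyroid samples. The gene was 47.1-fold higher in the thymic samples (5.56 ± 0.12, adjusted p = 3.45e-07), and its probe lies on chromosome 5 from 99120173 to 99120232. With another background correction (normexp) the difference was 3.86.

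Bmp5 went the opposite way, with the largest difference among the ligands that were higher in the thyroid samples. This ligand, related to Bmp6 and Bmp7, was at -5.58, -5.92 and -4.93 in the thymic samples and at -0.43, 0.01 and 0.33 in the thyroid samples. It was 43.7-fold higher in the thyroid samples (-5.45 ± 0.30, adjusted p = 7.45e-06, probe on chromosome 9 from 75684546 to 75684605), and -3.24 after normexp. Bmp6, which endothelial cells make to regulate iron, had levels of -1.17, -1.10 and -1.48 in the thymic and of 0.84, 0.86 and -0.19 in the thyroid samples. Thyroid replicate 3 was the lowest of its group and still above all thymic samples (-1.75 ± 0.30, adjusted p = 0.00176, 3.37-fold). Endothelial markers were also lowest on that array, in 12 of 12 cases, as were 42.4% of all genes called higher in the thyroid samples.

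Bmp2 and Bmp4 are close relatives that use the same receptors, and they too differed in opposite directions. Bmp2 had levels of -0.05, -0.05 and -0.10 in the thymic and of -1.07, -1.15 and -1.07 in the thyroid samples, a narrow spread in both. It was 2.04-fold higher in the thymic samples (1.03 ± 0.10, adjusted p = 9.25e-05). Bmp4, a mesenchymal signal in the thymus, was at -3.78, -3.78 and -3.53 in the thymic and at -1.88, -2.11 and -2.39 in the thyroid samples, 2.97-fold higher in the latter (-1.57 ± 0.16, adjusted p = 1.44e-04). The summed fibroblast and mural markers overlapped between the groups, and the part of those cells in the result was not tested. The difference of Bmp4 was -0.97 after normexp and -2.21 after quantile normalization. Bmp8a was at -2.14, -2.46 and -1.88 in the thymic and at -3.97, -3.48 and -4.12 in the thyroid samples, 3.24-fold higher in the thymic samples (1.69 ± 0.22, adjusted p = 4.71e-04). Bmp8b was above background on 1 thymic array, Bmp15 on 2 thyroid arrays and Bmp10 on none, and these 3 were not tested.

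**Figure D3:**
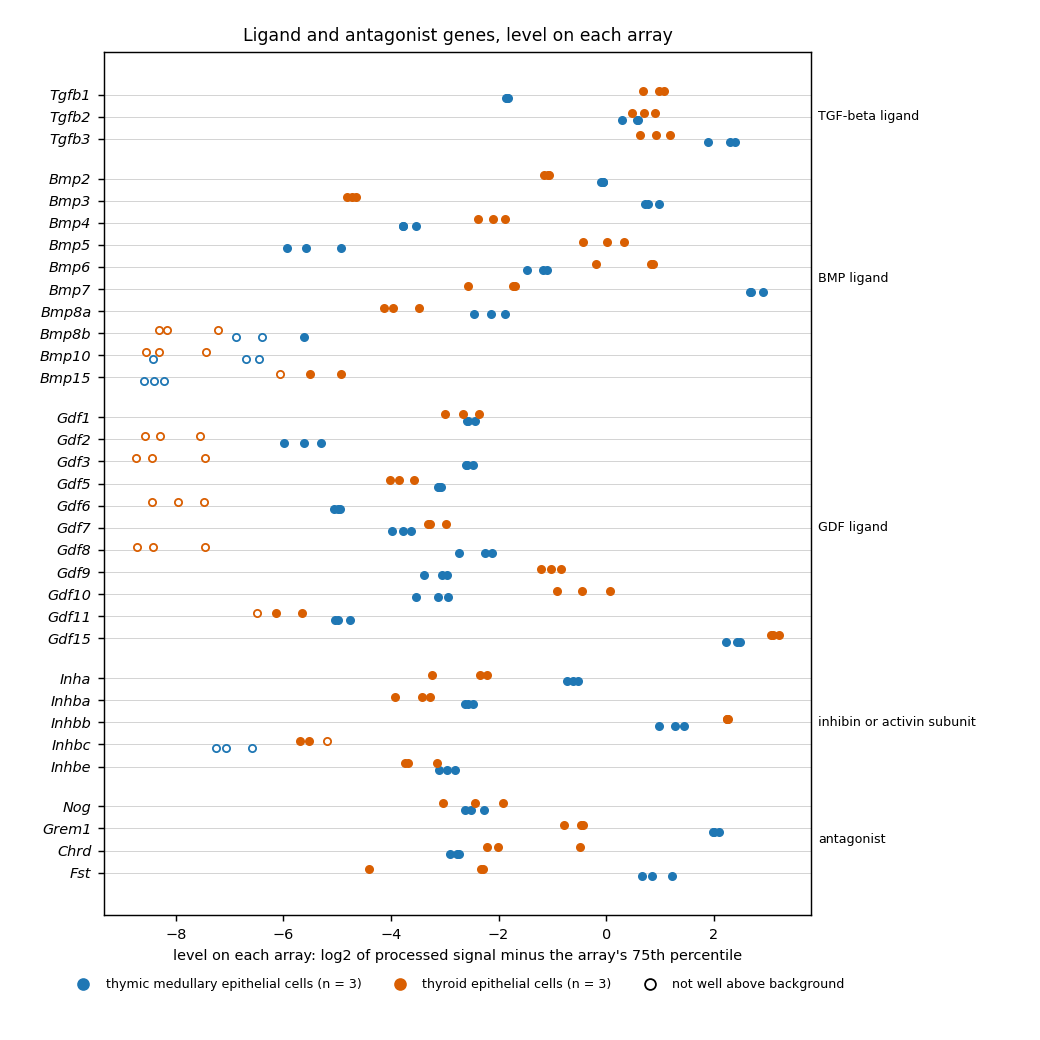
Level of each ligand and antagonist gene on each array, as log2 of the processed signal minus the array's 75th percentile, with thymic samples in blue, thyroid samples in orange and open points where the probe was not well above background. Bmp3 and Bmp7 lie far to the right in the thymic samples, Bmp5 and Tgfb1 in the thyroid samples, and the groups of Tgfb2 and Nog overlap.

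Among the growth and differentiation factors, 6 of 11 tested genes were higher in the thymic and 4 in the thyroid samples. The largest thymic calls were for ligands whose thyroid signal was not above background on any array, so that only a lower bound on the fold can be given. The bound sets the thymic mean against the dimmest signal that counted as above background on each thyroid array. Gdf8, now named Mstn for myostatin and known as the restraint on muscle growth, was at -2.24, -2.73 and -2.13 in the thymic samples, at least 12.2-fold higher than in the thyroid samples (measured thyroid levels -8.43, -7.45 and -8.73, difference 5.83, adjusted p = 1.04e-05). Gdf3, an early embryonic ligand, was at -2.59, -2.61 and -2.47 in the thymic samples, at least 10.7-fold higher (measured thyroid levels -8.44, -7.46 and -8.74, difference 5.65, adjusted p = 8.10e-06). All thymic samples lay above background for both genes, and normexp reduced the differences to 1.69 and 1.54 without ending either call.

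Gdf6 and Gdf2 were nearer the detection limit. Gdf6, a joint and eye morphogen, was at -4.99, -5.06 and -4.95 in the thymic samples, at least 1.98-fold higher than in the thyroid samples, where measured levels were -8.44, -7.47 and -7.96 (difference 2.96, adjusted p = 4.43e-05). After normexp its difference was 0.42 and no longer passed (adjusted p = 0.0566). Gdf2, or BMP9, a circulating ligand of Acvrl1, was at -5.30, -5.99 and -5.62 in the thymic samples and above background on no thyroid array, at least 1.27-fold higher (adjusted p = 3.10e-04). Its call ended after normexp (0.14, adjusted p = 0.520). Setting signals that were not above background to the detection floor ended it too (0.35, adjusted p = 0.365).

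Gdf5 and Gdf11 had small thymic differences that some settings ended. Gdf5, a joint morphogen, differed by 0.72 ± 0.14 (adjusted p = 0.00340), but by -0.02 after quantile normalization and 0.18 after median centring. Gdf11, a relative of myostatin that patterns the skeleton, differed by 1.16 ± 0.22 (adjusted p = 0.00280), with 2 of 3 thyroid arrays above background, and by -0.13 after quantile normalization and 0.08 after normexp. With median centring Gdf11 kept its call (0.63, adjusted p = 0.0408, range over all settings 8.49e-04 to 0.626). Gdf1, a partner of Nodal in the embryo, passed in neither direction (0.15 ± 0.17, adjusted p = 0.473).

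The thyroid-higher growth and differentiation factors were Gdf10, Gdf9, Gdf15 and Gdf7. Gdf10, a relative of Bmp3, was at -3.13, -3.53 and -2.94 in the thymic and at 0.06, -0.45 and -0.92 in the thyroid samples. The 6.80-fold higher level in the thyroid samples (-2.77 ± 0.27, adjusted p = 1.20e-04) exceeded the spread in both groups. Gdf9, best known from the oocyte, had levels of -2.96, -3.38 and -3.04 in the thymic and of -1.03, -0.85 and -1.22 in the thyroid samples, 4.28-fold higher in the latter (-2.10 ± 0.16, adjusted p = 3.44e-05). Gdf15, a distant relative that cells secrete under stress, was at 2.22, 2.44 and 2.49 in the thymic and at 3.06, 3.21 and 3.11 in the thyroid samples (-0.74 ± 0.12, adjusted p = 0.00125, 1.68-fold). Gdf7 differed by -0.60 ± 0.15 (adjusted p = 0.00964) and by -1.38 after quantile normalization.

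Inhibin and activin subunits pair to form activins (beta with beta) or inhibins (alpha with beta), and 3 of 4 tested were higher in the thymic samples. Inha, the alpha subunit that turns an activin into its inhibitor, was at -0.52, -0.62 and -0.73 in the thymic and at -2.35, -3.24 and -2.22 in the thyroid samples, 3.95-fold higher in the former (1.98 ± 0.27, adjusted p = 5.84e-04). Inhbb, which forms activin B, was the exception: levels of 1.44, 0.99 and 1.28 in the thymic and of 2.25, 2.24 and 2.26 in the thyroid samples put it 2.02-fold higher in the thyroid samples (-1.01 ± 0.14, adjusted p = 6.02e-04). A second Inhbb probe showed no call (-0.10, adjusted p = 0.697). Inhba, which forms activin A, was at -2.49, -2.63 and -2.57 in the thymic and at -3.42, -3.92 and -3.27 in the thyroid samples, with no overlap (0.98 ± 0.18, adjusted p = 0.00272, 1.97-fold). Its call ended with median centring (0.44, adjusted p = 0.0667) and quantile normalization (0.35, adjusted p = 0.107). Inhbe, a subunit known from liver, was called at 0.56 ± 0.19 (adjusted p = 0.0337) but lost the call in 9 settings (adjusted p from 0.00375 to 0.889), and turned to -0.11 after quantile normalization. Inhbc was above background on 2 thyroid arrays and not tested.

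Of the 4 secreted antagonists, Grem1 and Fst were higher in the thymic samples, Chrd in the thyroid samples, and Nog passed in neither direction. Grem1, or gremlin, which binds BMP2, BMP4 and BMP7, was at 1.99, 2.01 and 2.09 in the thymic samples and at -0.79, -0.46 and -0.43 in the thyroid samples. It was 6.02-fold higher in the thymic samples (2.59 ± 0.13, adjusted p = 5.48e-06, probe on chromosome 2 from 113549909 to 113549968), with a gap between the groups many times their spread. Fst, or follistatin, which captures activins, stood at 0.86, 1.22 and 0.67 in the thymic and at -2.33, -2.29 and -4.42 in the thyroid samples. All 3 thymic levels were above all thyroid levels, and thyroid replicate 3 stood below the other thyroid samples. The fold of 15.2 (3.93 ± 0.57, adjusted p = 7.83e-04) rests in part on that array: without it the difference was 3.23 (adjusted p = 3.22e-05, range over all settings 6.73e-06 to 0.0160). Fibroblast and mural markers, from cells that also make both antagonists, overlapped between the groups, at 41.8 to 57.1 and 27.5 to 53.0. Their lowest sum, 27.5, was on thyroid replicate 3, the array with the lowest Fst level, and their part in the fold of Fst was not tested.

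Chrd, or chordin, which binds BMPs until a protease cuts it, was at -2.77, -2.74 and -2.91 in the thymic and at -2.22, -0.49 and -2.01 in the thyroid samples. Thyroid replicate 2 stood apart, and on that array the summed markers of C cells were also highest (911, and 366 without Calca). Their part in the result was not tested. The difference of -1.23 ± 0.44 passed narrowly (adjusted p = 0.0409). Without that array it was -0.69 (adjusted p = 0.00449), and a block for the slide made it -0.58 (adjusted p = 0.398, range over all settings 0.00449 to 0.398). Leaving out any 1 thymic sample also ended the call, at differences of -1.18 to -1.26, as did testing every probe without a filter (adjusted p = 0.0612). Nog, or noggin, had overlapping levels of -2.51, -2.62 and -2.26 in the thymic and of -3.02, -1.91 and -2.44 in the thyroid samples (-0.00 ± 0.28, adjusted p = 0.990). On slide 1 alone its difference was 0.56 (adjusted p = 0.0414).

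Type 1 receptors ranged from the largest difference of all members to none. Acvrl1, the BMP9 and BMP10 receptor of endothelial cells, was at -6.20, -6.31 and -5.61 in the thymic samples, above background on 2 of 3 arrays, and at 2.18, 1.98 and 1.53 in the thyroid samples. Means were -6.04 ± 0.38 (SD, n = 3) and 1.90 ± 0.33 (SD, n = 3), a 245-fold higher signal in the thyroid samples (-7.94 ± 0.25 SE, adjusted p = 8.31e-07), and -5.33 after normexp. Endothelial markers were higher on the same arrays, in 12 of 12 cases, at sums of 751 to 1107 against 5.44 to 6.04, and their part in this result was not tested. Its probe lies on chromosome 15 between 100965117 and 100965409. On slide 1 alone, with 1 thyroid array, the difference was -8.22.

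Acvr1c, or ALK7, a receptor of activin B and Nodal, had the opposite pattern. It was at -2.71, -2.96 and -2.49 in the thymic samples and above background on no thyroid array (measured levels -7.96, -7.02 and -8.70), at least 9.59-fold higher in the thymic samples (5.17 ± 0.40, adjusted p = 3.79e-05). All 3 of its probes gave the same call, and the difference was 1.30 after normexp. Acvr1b, or ALK4, the main activin receptor, was 1.40-fold higher in the thymic samples (0.49 ± 0.12, adjusted p = 0.00965), a difference that became -0.05 with median centring. A second, dimmer probe was called in the same direction (1.36, adjusted p = 8.60e-04), and the median over its probes was 0.92 (adjusted p = 0.00118).

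The type 1 receptors of TGF-beta and BMP, Tgfbr1, Bmpr1a and Acvr1, differed little. Tgfbr1 was at 0.57, 0.52 and 0.19 in the thymic and at 1.03, 0.69 and 0.97 in the thyroid samples (-0.47 ± 0.15, adjusted p = 0.0299, 1.39-fold). It lost the call in 8 settings (adjusted p from 0.00114 to 0.280), and a second probe was not called (0.16, adjusted p = 0.396). Bmpr1a was at 0.82, 0.81 and 0.66 in the thymic and at 0.19, 0.55 and 0.81 in the thyroid samples, which overlapped (0.24 ± 0.17, adjusted p = 0.246). With the slide as a block it was called (0.57, adjusted p = 0.0290), and with median centring its difference was -0.29. Acvr1, a BMP receptor also called ALK2, was at 0.10, -0.02 and -0.18 in the thymic and at 0.16, -0.23 and -0.08 in the thyroid samples (0.02 ± 0.14, adjusted p = 0.922). Its groups overlapped throughout, and with median centring it was at -0.52 (adjusted p = 0.0186, range over all settings up to 0.986). Bmpr1b was above background on 2 arrays of each group and was not tested.

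All 4 type 2 receptors, the ligand-binding kinases that activate the type 1 receptors, were higher in the thyroid samples, as was the coreceptor Tgfbr3. Tgfbr2, the TGF-beta receptor, was at 0.17, 0.59 and 0.44 in the thymic samples and at 4.56, 3.87 and 3.61 in the thyroid samples. The 12.2-fold difference (-3.61 ± 0.26, adjusted p = 2.48e-05) was -4.16 on slide 1 alone. Bmpr2, the BMP receptor, was at 1.61, 1.50 and 1.43 in the thymic and at 4.63, 4.33 and 4.36 in the thyroid samples, 7.60-fold higher (-2.93 ± 0.13, adjusted p = 2.82e-06), and all 3 of its probes were called in this direction. Both receptors are abundant in endothelium, whose markers had sums of 751 to 1107 in these thyroid samples, and the part of those cells was not tested.

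The activin receptors of type 2 differed less. Acvr2b was at -2.91, -2.87 and -3.19 in the thymic and at -1.43, -1.56 and -1.52 in the thyroid samples, 2.81-fold higher in the latter (-1.49 ± 0.13, adjusted p = 5.63e-05). Acvr2a was 1.93-fold higher (-0.95 ± 0.18, adjusted p = 0.00266) by its brightest probe, but another of its probes was not called (0.54, adjusted p = 0.0842), and the median over its probes was -0.02 (adjusted p = 0.926). Tgfbr3, or betaglycan, which presents TGF-beta2 to the receptors, was at -4.59, -4.23 and -4.03 in the thymic and at -2.64, -2.60 and -2.57 in the thyroid samples. It was 3.21-fold higher in the thyroid samples (-1.68 ± 0.16, adjusted p = 9.51e-05), with no overlap, and -0.93 after normexp.

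**Figure D4:**
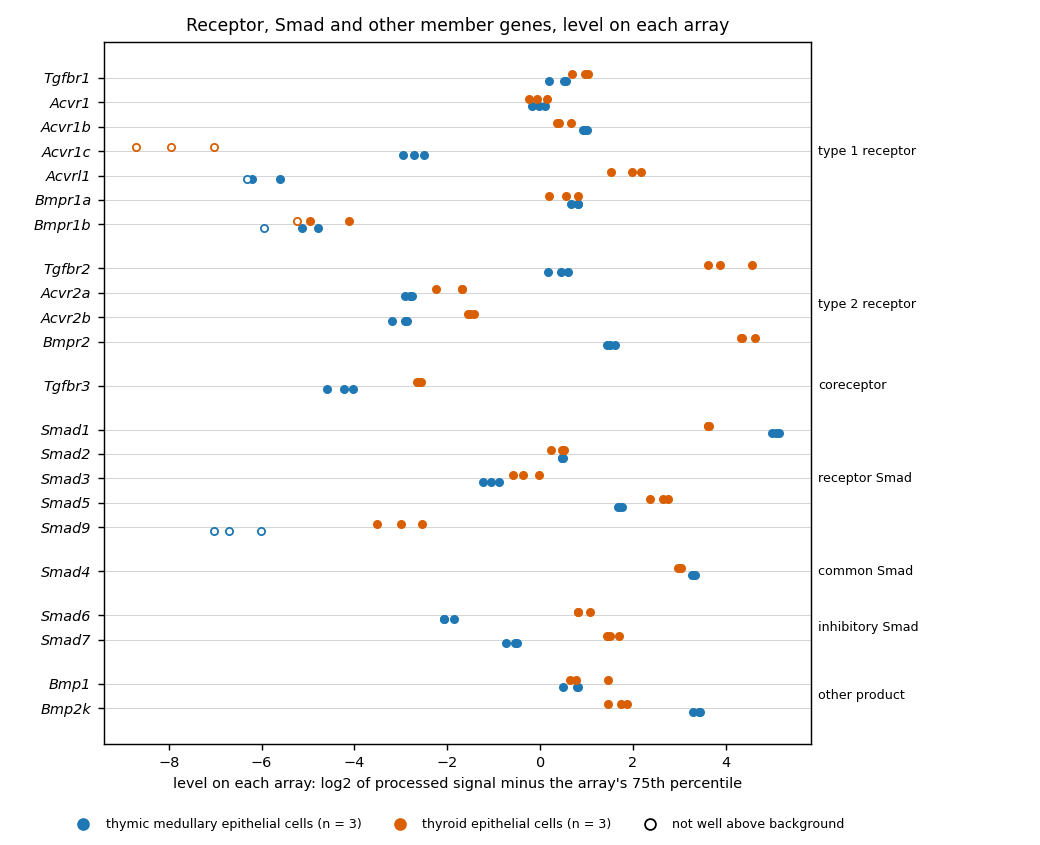
Level of each receptor, Smad and other member gene on each array, as log2 of the processed signal minus the array's 75th percentile, with thymic samples in blue, thyroid samples in orange and open points where the probe was not well above background. All 4 type 2 receptors and both inhibitory Smads lie to the right in the thyroid samples, Smad1 and Acvr1c in the thymic samples, and Acvr1 and Smad2 overlap.

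The receptor Smads of the BMP branch did not move together. On the BMP branch, Smad1 was higher in the thymic samples, at 5.09, 5.00 and 5.15 against 3.64, 3.61 and 3.62 (1.45 ± 0.10, adjusted p = 2.06e-05, 2.73-fold). Its relatives Smad5 and Smad9 were higher in the thyroid samples. Smad5 was at 1.76, 1.69 and 1.67 in the thymic and at 2.76, 2.36 and 2.65 in the thyroid samples (-0.88 ± 0.13, adjusted p = 9.78e-04, 1.84-fold), while the dimmest of its 3 probes was not called (-0.04, adjusted p = 0.769). By its brighter probe, Smad9 was above background on no thymic array (measured levels -6.71, -6.02 and -7.03) and at -3.52, -2.99 and -2.54 in the thyroid samples, at least 8.49-fold higher (-3.57 ± 0.33, adjusted p = 9.19e-05). A second Smad9 probe, above background on 1 thymic array, was called in the same direction (-2.35, adjusted p = 6.87e-04), and after normexp the difference of the gene was -1.18. The 3 genes thus had different signs although their products serve the same receptors.

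On the TGF-beta and activin branch the differences were smaller. Smad3 was at -1.06, -0.89 and -1.22 in the thymic and at -0.37, -0.59 and -0.03 in the thyroid samples (-0.73 ± 0.17, adjusted p = 0.00849, 1.66-fold), and with the slide as a block it no longer passed (-0.69, adjusted p = 0.0664). Smad2 had overlapping levels of 0.47, 0.48 and 0.49 in the thymic and of 0.48, 0.51 and 0.23 in the thyroid samples (0.08 ± 0.12, adjusted p = 0.583). With median centring its difference was -0.46, in the direction of Smad3 (adjusted p over all settings 0.0106 to 0.984). Smad4, the common partner of all receptor Smads, was at 3.34, 3.26 and 3.29 in the thymic and at 3.01, 2.97 and 3.03 in the thyroid samples. The groups did not overlap, but the difference of 0.29 ± 0.10 (adjusted p = 0.0297, 1.23-fold) lost its call in 9 settings (adjusted p from 0.00175 to 0.111) and was -0.24 with median centring. A second Smad4 probe was not called (0.12, adjusted p = 0.321).

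Both inhibitory Smads were clearly higher in the thyroid samples. Smad6, which blocks chiefly the BMP branch and is itself a BMP target, was at -2.06, -1.85 and -2.07 in the thymic and at 1.07, 0.82 and 0.81 in the thyroid samples, 7.43-fold higher (-2.89 ± 0.13, adjusted p = 3.05e-06, probe on chromosome 9 from 63751577 to 63751636). Smad7, which blocks TGF-beta receptors as well, was at -0.54, -0.50 and -0.74 in the thymic and at 1.44, 1.71 and 1.50 in the thyroid samples, 4.42-fold higher (-2.14 ± 0.13, adjusted p = 1.01e-05). Neither gene's groups came near each other, and on slide 1 alone the difference of Smad6 was -3.06. Endothelial cells express both, and their markers were higher on the same arrays. That part was not tested.

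Bmp2k, a kinase of clathrin coats named for its induction by BMP2, was 3.26-fold higher in the thymic samples by its brightest probe (1.70 ± 0.14, adjusted p = 4.43e-05). Its other 3 probes were called in the same direction, at differences of 1.59 to 1.90. Bmp1, a protease that cuts procollagen and chordin, was at 0.79, 0.80 and 0.49 in the thymic and at 1.46, 0.78 and 0.65 in the thyroid samples, which overlapped (-0.27 ± 0.23, adjusted p = 0.327). Its second probe was called higher in the thyroid samples, at -2.60, -2.51 and -2.72 in the thymic and at -1.28, -1.67 and -1.89 in the thyroid samples (adjusted p = 0.00192). Of the members with several tested probes, none had probes called in opposite directions.

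Smad6, Bmpr2, Tgfbr2 and Grem1 differed clearly and have a promoter in the RefSeq table for GRCm38.p6, a later build than that of the array, so these sequences are shown for the elements that Smad proteins are known to bind. Of the 55 members, 39 matched a window of 250 bases before to 50 after a start site. Capitals mark GTCTAGAC, the palindromic Smad element, GGCGCC, a GC-rich element of the BMP branch, and CAGAC or its reverse complement GTCTG, the single Smad box. GTCTAGAC contains no whole GTCTG or CAGAC. The windows, 5′ to 3′ along the gene, are Smad6 at chr9:64022010-64022309 on the minus strand, Bmpr2 at chr1:59764029-59764328 on the plus strand, Tgfbr2 at chr9:116175314-116175613 on the minus strand and Grem1 at chr2:113758599-113758898 on the minus strand.
Smad6: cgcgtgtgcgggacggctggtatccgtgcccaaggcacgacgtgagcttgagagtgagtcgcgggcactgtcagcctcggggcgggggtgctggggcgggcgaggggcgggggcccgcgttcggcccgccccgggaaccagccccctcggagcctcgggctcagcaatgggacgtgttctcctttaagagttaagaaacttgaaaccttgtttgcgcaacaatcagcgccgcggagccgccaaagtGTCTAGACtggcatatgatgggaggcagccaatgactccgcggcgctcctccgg
Bmpr2: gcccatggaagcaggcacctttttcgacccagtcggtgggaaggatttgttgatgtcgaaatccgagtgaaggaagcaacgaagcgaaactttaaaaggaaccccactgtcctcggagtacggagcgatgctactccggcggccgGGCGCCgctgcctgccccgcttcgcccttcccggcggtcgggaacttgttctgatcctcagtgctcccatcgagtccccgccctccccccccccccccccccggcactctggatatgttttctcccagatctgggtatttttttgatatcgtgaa
Tgfbr2: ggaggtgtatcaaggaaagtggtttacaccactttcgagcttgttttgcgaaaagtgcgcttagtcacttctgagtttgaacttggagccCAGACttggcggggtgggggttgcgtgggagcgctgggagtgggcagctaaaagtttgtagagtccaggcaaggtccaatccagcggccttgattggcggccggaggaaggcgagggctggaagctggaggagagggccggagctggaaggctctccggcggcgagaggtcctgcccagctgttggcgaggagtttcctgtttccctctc
Grem1: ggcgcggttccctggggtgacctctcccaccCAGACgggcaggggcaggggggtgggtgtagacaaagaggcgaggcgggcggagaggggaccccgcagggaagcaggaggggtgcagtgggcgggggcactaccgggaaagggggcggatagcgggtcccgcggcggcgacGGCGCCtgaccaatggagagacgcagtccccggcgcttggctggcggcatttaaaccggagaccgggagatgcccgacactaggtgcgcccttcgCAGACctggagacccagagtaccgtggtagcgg

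The palindrome GTCTAGAC was found in 0.213% of all 32851 windows and in 1 member, Smad6, where it begins 4 bases before the start and runs across it. In Bmpr2 a GGCGCC lies before the start. Tgfbr2 holds a CAGAC 160 bases before it. Grem1 holds a CAGAC 219 bases before, a GGCGCC 78 bases before and a CAGAC 17 bases after the start. GGCGCC was in 11.9% of windows and 11 members, 3 of the 12 matched members that were higher in the thymic samples (Acvr1b, Grem1 and Bmp2k) and 6 of the 18 that were higher in the thyroid samples (Gdf10, Tgfbr1, Bmpr2, Smad5, Smad9 and Chrd). CAGAC on either strand was in 49.6% of windows and 20 members, 5 of the 12 and 10 of the 18. A match describes letters in the window and is not a measured site.

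Genes that act with the pathway but fall outside the naming rule leaned toward the thyroid samples. Of 64 such genes, 63 were on the array and 59 were tested: 17 were higher in the thymic samples, 29 in the thyroid samples and 13 in neither, with a median difference of -0.55 against 0.10 over all genes. All 12 endothelial markers were higher on the same thyroid arrays, at sums of 751 to 1107 against 5.44 to 6.04, and their part in these counts was not tested. That is 28.8% and 49.2% of those tested, against 39.3% and 30.5% of all genes. With median centring the calls were 11 and 41, or 18.6% and 69.5%, against 28.5% and 51.6%. Intracellular regulators gave 1 thymic and 7 thyroid calls of 11, and direct targets 4 and 9 of 15. Secreted antagonists and modulators outside the rule gave 5 and 3 of 14, latency and activation genes 3 and 6 of 10, and coreceptors and receptor modulators 4 and 3 of 8.

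Among direct targets, Id1 and Id3, inhibitors of helix-loop-helix factors and standard readouts of BMP signalling, were higher in the thyroid samples. Id1 was at 1.87, 2.68 and 1.78 in the thymic and at 4.47, 4.50 and 4.18 in the thyroid samples (-2.28 ± 0.25, adjusted p = 2.15e-04, 4.85-fold). Id3 was at 2.79, 3.56 and 2.88 in the thymic and at 5.53, 5.40 and 5.25 in the thyroid samples (-2.31 ± 0.22, adjusted p = 1.01e-04, 4.97-fold). In both, thymic replicate 2 was the highest of its group and still below every thyroid sample. Id2 was at 3.10, 3.43 and 2.93 in the thymic and at 3.42, 3.56 and 3.45 in the thyroid samples and did not pass (-0.32 ± 0.15, adjusted p = 0.0950). Without thymic replicate 2 it did (-0.46, adjusted p = 0.0277, range over all settings 0.00191 to 0.795).

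Ccn2, or connective tissue growth factor, a target of TGF-beta, was at 0.70, 1.52 and 0.59 in the thymic and at 4.82, 4.36 and 4.60 in the thyroid samples, 12.6-fold higher (-3.66 ± 0.27, adjusted p = 2.80e-05). Hamp, the iron hormone hepcidin that BMP6 induces in liver, ran against this. It was at 2.38, 2.25 and 2.32 in the thymic samples and above background on no thyroid array, at least 315-fold higher in the thymic samples (measured thyroid levels -8.33, -7.40 and -7.63, adjusted p = 4.12e-07). The difference of 10.10 became 5.62 after normexp.

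Eng, or endoglin, the coreceptor that works with Acvrl1, was at -3.68, -3.64 and -3.31 in the thymic and at 4.95, 4.54 and 4.10 in the thyroid samples, 270-fold higher in the latter (-8.08 ± 0.23, adjusted p = 6.94e-07). In the thyroid samples replicate 3 was the lowest for both genes, as it was in 12 of 12 endothelial markers. The same held for 42.4% of all genes called higher in the thyroid samples. The part of endothelial cells in these results was not tested. Bambi, a receptor without a kinase that dampens signalling, was at -0.63, -0.23 and -0.29 in the thymic and at 3.13, 2.81 and 2.43 in the thyroid samples, 9.03-fold higher (-3.17 ± 0.21, adjusted p = 1.69e-05).

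Of the genes for latency and release of TGF-beta, some were higher in each tissue. Ltbp proteins hold the ligand in its latent form. Ltbp4 was at 2.29, 2.25 and 2.03 in the thymic and at 6.93, 6.81 and 6.35 in the thyroid samples, 22.7-fold higher (-4.51 ± 0.18, adjusted p = 1.98e-06), and Ltbp1 was 5.64-fold higher there (-2.50 ± 0.13, adjusted p = 5.81e-06). Ltbp1 stood at -2.62, -2.47 and -2.23 in the thymic and at 0.05, 0.05 and 0.07 in the thyroid samples, with no overlap. Itgb8, the integrin chain that releases TGF-beta from latency, was at 0.36, 0.19 and 0.63 in the thymic and at -3.18, -2.85 and -2.85 in the thyroid samples, 10.2-fold higher in the thymic samples (3.35 ± 0.16, adjusted p = 4.36e-06). Its difference was 2.67 after normexp, and that of Ltbp1 was -1.80 by the median over its probes.

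Secreted modulators outside the naming rule differed in both directions. Bmper, which binds BMPs outside the cell, was at -1.72, -1.94 and -1.96 in the thymic samples and above background on no thyroid array (measured levels -6.80, -6.17 and -6.15), at least 15.9-fold higher in the thymic samples (4.50 ± 0.20, adjusted p = 3.10e-06), and 1.62 after normexp. Tll1, a protease that cuts chordin, was above background on no thymic array (measured levels -8.52, -8.34 and -8.15) and at -4.85, -4.36 and -5.44 in the thyroid samples, at least 2.44-fold higher there (adjusted p = 3.95e-05).

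**Figure D5:**
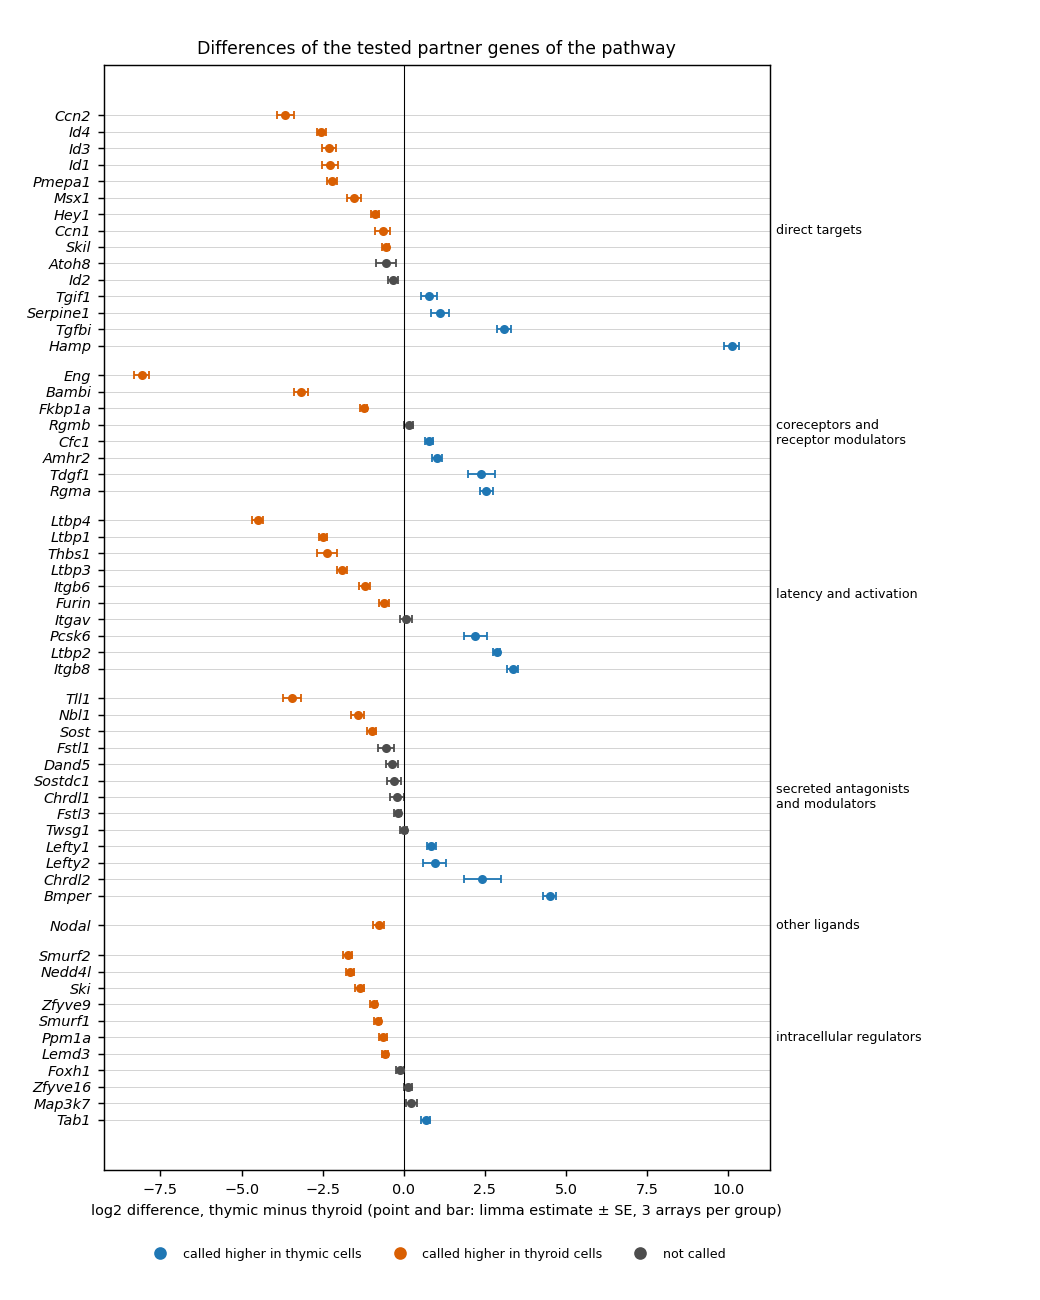
Log2 difference (thymic minus thyroid) with its standard error for the tested partner genes of the pathway except 1, grouped by what they do and coloured by call at an adjusted p under 0.05. Eng at -8.08 and Ltbp4 at -4.51 lie at the thyroid end, Hamp and Bmper at the thymic end, and 7 of 11 intracellular regulators are called to the left of 0.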

How the data were processed

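Messenger RNA levels of 6 samples were read from one-colour Agilent arrays. Per the file headers, Feature Extraction 10.5.1.1 read the scans and probes are placed on mm8. The authors' scanner files hold an intensity per spot, already background-subtracted per the file headers, and flags for signals well above background (13 background SDs), saturation and outliers. The authors also deposited a table that is a linear ratio: compared with the scanner files, it is the processed signal over the median of its array, with a median of 1 in every column.

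Control spots and outlier flags were left out, spots of a probe averaged, and log2 signals centred on each array's 75th percentile. Probes entered the test where every array of at least 1 group had them well above background, and a gene was its brightest tested probe. Groups were compared with limma 3.58.1 (lmFit and eBayes, two-sided, R 4.3.3) over 21381 genes, with Benjamini-Hochberg adjustment and a threshold of 0.05. The code was tested on simulated data. Figures were drawn with Python 3.11.15 and matplotlib 3.10.9. Names came from the GRCm38.p6 RefSeq table (24375 probes by accession, 6301 by symbol, 2426 by older symbol, 8072 kept the file's name); members kept the file's name, and Mstn was counted as Gdf8 and not as a partner gene. Ccl21a and Lrrc32 were not found under their own names. The exon or UTR under a probe was not analysed here, and 5 members too dim to test are named in the text.

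Named with values on each array were the 8 members with the largest called difference in each direction, 22 pathway genes chosen by name, and further members where they show how a role splits. Of the partner genes, the 4 largest in each direction and Id1, Id2, Id3, Eng, Ltbp1 and Bambi were named, except 1 that is not reported here. Members and lists were chosen with earlier results of these data known. Alternatives were normexp (offset 50), quantile normalization, median centring, the deposited table, other filters, a floor, the median over probes, blocks for slide or for replicate number, slide 1 alone, trended variances and leaving out each sample. The number of arrays limits the precision.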

Additional observations from a re-analysis of the deposited data

How the results depend on the processing

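Limits come from 3 samples a group, from thyroid replicates 2 and 3 being alone on the second slide, so that slide 1 holds 1 thyroid sample assumed to vary like the others, and from probes near background, where normexp shrinks differences (16 thymic and 22 thyroid members). Over the alternatives the member counts ran from 15 to 22 thymic and from 20 to 26 thyroid. Leaving out 1 sample gave 19 to 20 thymic and 20 to 22 thyroid members. Requiring signal on all 6 arrays left 42 members and 5032 thymic calls over the whole array, since genes seen in 1 group drop out.

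Centring is the choice that turned most signs. Median centring gave 11041 thyroid calls over the array and 11 thymic partner genes, against 10966 and 11 from the values the authors deposited. The median log2 difference of all genes tested became -0.43 and -0.42 under these, -0.050 after quantile normalization and -0.10 with the filter on all 6 arrays. Under median centring and the deposited table, differences turned to -0.52 and -0.51 for Acvr1, -0.049 and -0.039 for Acvr1b, -0.29 and -0.28 for Bmpr1a, -0.39 and -0.38 for Gdf1, -0.46 and -0.45 for Smad2, and -0.24 and -0.23 for Smad4. Quantile normalization turned Gdf1 to -0.37, Gdf11 to -0.13, Gdf5 to -0.023 and Inhbe to -0.11. Normexp turned Acvr1 to -0.019 and Nog to 0.039, and slide 1 alone, like the slide as a block, turned them to -0.19 and 0.56. Leaving out 1 sample gave -0.074 to 0.12 for Acvr1, -0.013 to 0.30 for Gdf1, -0.29 to 0.27 for Nog and -0.013 to 0.13 for Smad2. Where the construction does not show it, the cause was not tested.

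Samples that share a replicate number did not deviate together (correlations 0.00660, -0.0667 and -0.0544). These are deviations from means of 3 samples, so they cannot show whether the numbers pair the samples. With the replicate number as a block, 19 members were called thymic and 21 thyroid. Inhbe (0.56, adjusted p = 0.0711), Smad4 (0.29, adjusted p = 0.0832) and Tgfbr1 (-0.47, adjusted p = 0.0564) were no longer called.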
